A study of Mus musculus with 8 samples.

Results

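Ependymal genes are described here as 4 genes, Foxj1, Tmem212, Ccdc153 and Rarres2, which were taken by symbol from the 13996 genes of the deposited FPKM values, which count sequenced fragments relative to transcript length and library size. All 4 were found, and all 4 passed the filter on low values. The samples were cortexes of male C57BL/6 mice bought at 8 weeks of age and killed under ether at 16 weeks. In the normal diet group 4 mice ate conventional food, and in the high fat diet group 4 mice ate food with 60% fat by weight for the 8 weeks between. The mice carried no transgene or deletion that the labels name, each mouse gave 1 library of RNA depleted of rRNA, and the sources used here do not say where the tissue was cut.

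Ependymal cells form the ciliated epithelium that lines the ventricles of the brain. Their motile cilia beat in cerebrospinal fluid and are built under the control of the forkhead factor Foxj1, together with factors of the RFX family. The lining lies below the white matter and is not part of the layers of the cortex. Beside Foxj1, the genes are Ccdc153, which encodes a coiled-coil protein of the nexin-dynein regulatory complex in the axoneme, Tmem212, which encodes a membrane protein and is used as an ependymal marker, and Rarres2. The product of Rarres2 is chemerin, a secreted chemoattractant and adipokine that liver and fat also make.

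In the GENCODE annotation of GRCm38 (release M21), Foxj1 lies on the minus strand of chromosome 11 from 116330704 to 116335399, with 1 transcript of 3 exons. Tmem212 lies on the minus strand of chromosome 3 from 27866066 to 27896368, with 1 transcript of 4 exons. Ccdc153 spans 44240676 to 44247306 on chromosome 9, plus strand, and its longest coding transcript has 7 exons. Rarres2 lies on the minus strand of chromosome 6 from 48569696 to 48572789, and its longest coding transcript has 6 exons. Lrrc61, on the opposite strand, overlaps Rarres2 by 1027 bp. Its mean FPKM was 3.23 in normal mice and 3.15 in mice on the high fat diet. The sources used here do not say whether reads were assigned by strand.

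The RefSeq promoter sequences of GRCm38.p6 held Tmem212 and Ccdc153 among the members, and the 250 bases before each start are shown because both genes are markers of ciliated cells. They were searched on both strands for the forkhead core TGTTTA and for the RFX core GTTGCC, and matches are in capitals. The Tmem212 sequence lies on the minus strand at chr3:27896369-27896618 and the Ccdc153 sequence on the plus strand at chr9:44240427-44240676.
Tmem212: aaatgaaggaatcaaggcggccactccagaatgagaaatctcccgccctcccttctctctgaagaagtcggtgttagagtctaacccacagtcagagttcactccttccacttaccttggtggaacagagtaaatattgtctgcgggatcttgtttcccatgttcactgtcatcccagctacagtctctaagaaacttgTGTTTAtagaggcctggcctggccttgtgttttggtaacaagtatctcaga
Ccdc153: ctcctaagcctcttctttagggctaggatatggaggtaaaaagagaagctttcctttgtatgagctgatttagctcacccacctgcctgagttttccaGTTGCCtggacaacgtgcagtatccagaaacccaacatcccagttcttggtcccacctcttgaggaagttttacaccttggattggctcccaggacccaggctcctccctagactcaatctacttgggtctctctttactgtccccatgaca

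Tmem212 held 1 match to the forkhead core, whose first base lies 51 bases before the start, and 0 to the RFX core. Ccdc153 held 1 match to the RFX core, 152 bases before the start, and 0 to the forkhead core. Of 32851 promoter windows of this length, 12.03% held the forkhead core and 10.4% the RFX core, so each match is to a short and common motif.

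The sums of FPKM per mouse ranged from 562431 to 639142, and read numbers cannot be had from them. Values were deposited to 0.1 FPKM, which is coarse for genes near or below 1 FPKM. The defining markers of cortical neurons were present in every mouse, but they differed between the diets. Of 8 such genes, 6 passed upwards and 0 downwards by limma (adjusted p below 0.05), and Cux2, a transcription factor of upper layer neurons, went from a mean of 17.3 to 29.3 FPKM. Markers of the striatum, the cerebellum and the choroid plexus also differed between the diets or between mice of a diet, and they are given beside the ependymal genes further on.

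All 4 ependymal genes were lower on the high fat diet. Their mean FPKM there was 25% of the normal mean for Tmem212, 25.5% for Ccdc153, 40% for Foxj1 and 64.6% for Rarres2. Diets were compared with limma on log2(FPKM + 0.1), two-sided, and p-values were adjusted by Benjamini-Hochberg over 13982 genes, those whose mean was at least 1 FPKM and whose FPKM was never 0. A gene passed the test when its adjusted p was below 0.05. On this scale the change of genes with low expression is understated. All 4 genes passed downwards, while 15.3% of all genes tested did so and 17.7% passed upwards. In bulk RNA, fewer ependymal cells in the sample and less of these RNAs per cell cannot be told apart.

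**Figure D1:**
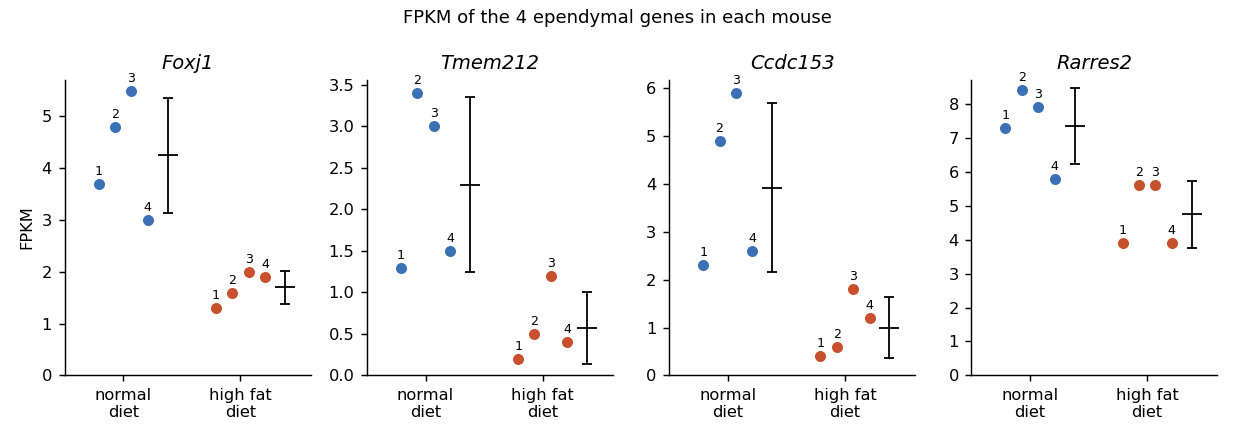
FPKM (vertical axis, from 0) of Foxj1, Tmem212, Ccdc153 and Rarres2 in each of the 4 normal diet mice (blue) and 4 high fat diet fed mice (red), with the mouse number above each point and the mean ± SD in black. Every high fat diet fed mouse lies below every normal diet mouse in each panel, by 0.1 FPKM for Tmem212 and by 1 FPKM for Foxj1, and normal mice 2 and 3 are the highest.

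Foxj1, the transcription factor of motile ciliogenesis, had 3.7, 4.8, 5.5 and 3.0 FPKM in normal mice 1 to 4 and 1.3, 1.6, 2.0 and 1.9 FPKM in high fat diet fed mice 1 to 4. The diets did not overlap, and 1 FPKM separated the lowest normal mouse from the highest high fat diet fed mouse. The mean went from 4.25 ± 1.12 (SD, n = 4) to 1.70 ± 0.316 (SD, n = 4). The log2 change was -1.25 (standard error 0.20, 95% interval -1.70 to -0.81, adjusted p = 0.00221 from limma). Of the 4 genes Foxj1 had the smallest p.

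Ccdc153, the axonemal gene of the set, had 2.3, 4.9, 5.9 and 2.6 FPKM in normal mice 1 to 4. It had 0.4, 0.6, 1.8 and 1.2 FPKM in high fat diet fed mice. Again the diets did not overlap, although mice of the same diet differed widely. The highest normal mouse was 2.57 times the lowest, and the highest high fat diet fed mouse was 4.5 times the lowest. The mean went from 3.93 ± 1.76 to 1.00 ± 0.632 FPKM (SD, n = 4 each), a log2 change of -1.95 (standard error 0.44, 95% interval -2.94 to -0.97, adjusted p = 0.00924 from limma).

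Tmem212, the membrane protein gene, had 1.3, 3.4, 3.0 and 1.5 FPKM in normal mice and 0.2, 0.5, 1.2 and 0.4 FPKM in high fat diet fed mice. Only 0.1 FPKM, the rounding step of the values, separated normal mouse 1 from high fat diet fed mouse 3. Tmem212 passed the filter on low values through the normal diet, since its mean on the high fat diet was 0.575 ± 0.435 FPKM (SD, n = 4) against 2.30 ± 1.06 (SD, n = 4). Its log2 change was -1.92 (standard error 0.45, 95% interval -2.94 to -0.91, adjusted p = 0.0114 from limma). With each value moved by 0.05 FPKM towards the other diet, an alternative chosen after seeing the data, all 4 genes still passed.

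Rarres2, which encodes chemerin, had the highest FPKM of the 4 and the smallest log2 change. It had 7.3, 8.4, 7.9 and 5.8 FPKM in normal mice and 3.9, 5.6, 5.6 and 3.9 FPKM in high fat diet fed mice. The diets were separated by 0.2 FPKM, between normal mouse 4 and high fat diet fed mice 2 and 3. The mean went from 7.35 ± 1.13 to 4.75 ± 0.981 FPKM (SD, n = 4 each), a log2 change of -0.63 (standard error 0.16, 95% interval -0.98 to -0.28, adjusted p = 0.0145 from limma). None of the 3 genes of chemerin receptors, Cmklr1, Gpr1 and Ccrl2, was among the values used here.

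For each of the 4 genes, every high fat diet fed mouse lay below every normal mouse, which also held for 14.7% of all genes tested. The exact two-sided permutation test over 70 assignments of the mice gave p = 0.0286 for each, the smallest p that 4 mice against 4 can give. With each mouse left out in turn all 4 genes still passed, with an adjusted p of at most 0.0427 from limma, for Rarres2. Without normal mice 2 and 3 together, an alternative chosen after seeing the data, Foxj1 alone passed (log2 change -0.95, adjusted p = 0.0152 from limma). In that fit, in which 8.69% of all genes passed downwards, Tmem212 was at -1.36, Ccdc153 at -1.40 and Rarres2 at -0.47, with adjusted p = 0.101, 0.0793 and 0.114 from limma.

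The smaller change of Rarres2 was compared with the others within mice, by a test added after the values were seen. The log2 change of Rarres2 was smaller than that of Foxj1 by 0.63, of Tmem212 by 1.30 and of Ccdc153 by 1.32. Exact two-sided permutation p-values were 0.0286, 0.0571 and 0.0857, and each was 0.171 after Benjamini-Hochberg adjustment over the 6 pairs of genes. None of these differences passed after adjustment. Tmem212 and Ccdc153 differed in their change by 0.03 (exact p = 0.914, adjusted p = 0.914).

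Mice of the same diet kept a similar order across the genes. Normal mice 2 and 3 were the highest 2 normal mice for each of the 4 genes, and high fat diet fed mouse 3 was the highest of its diet, tied with mouse 2 for Rarres2. High fat diet fed mouse 1 was the lowest for Foxj1, Tmem212 and Ccdc153, and tied for the lowest with mouse 4 for Rarres2. After each diet's mean was subtracted, Pearson's r over the 8 mice was 0.89 for Foxj1 and Ccdc153 (two-sided p = 0.0104 by exact permutation of the mice inside each diet, or 0.0625 once adjusted for 6 pairs). Spearman's rho for that pair was 0.88 (exact p = 0.0104, adjusted p = 0.0556). Leaving out the 2 mice whose Foxj1 lay farthest from the median gave an r of 0.92.

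For Tmem212 and Ccdc153, r within diets was 0.89 (exact p = 0.0226, adjusted p = 0.0677) and rho 0.88 (exact p = 0.0243, adjusted p = 0.0556), with an r of 0.75 once the 2 farthest mice were left out. For Foxj1 and Tmem212 they were 0.80 (exact p = 0.0451, adjusted p = 0.0677) and 0.83 (exact p = 0.0278, adjusted p = 0.0556), and r was 0.71 without 2 mice. Rarres2 had r of 0.77 with Tmem212 (exact p = 0.0417, adjusted p = 0.0677), 0.62 with Foxj1 (exact p = 0.125, adjusted p = 0.15) and 0.47 with Ccdc153 (exact p = 0.243, adjusted p = 0.243). Their rho values were 0.75, 0.65 and 0.52 (exact p = 0.0556, 0.0972 and 0.243, adjusted p = 0.0833, 0.117 and 0.243). Without the 2 farthest mice, r fell to 0.06 for Rarres2 and Foxj1 and to 0.12 for Rarres2 and Ccdc153, so both values depended on the mice left out. These were normal mouse 4 and high fat diet fed mouse 1 for the first pair, and high fat diet fed mice 3 and 1 for the second. For Rarres2 and Tmem212, r without 2 mice was 0.64. No pair stayed below 0.05 after adjustment.

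Other genes of motile cilia mostly did not pass the test. A list of 95 genes covered the multiciliation program, axonemal dynein motors, dynein assembly and docking, radial spokes with the nexin link and central pair, and other axonemal proteins. Of these, 34 were among the values used here and 33 were tested, and 33 of the 34 had a mean of at least 1 FPKM on the high fat diet alone. Downwards 4 passed, 12.1% against 15.3% of all genes, and upwards 2 passed, 6.06% against 17.7%. The median log2 change of the 33 genes was 0.11, and that of all genes tested was 0.00. The summed FPKM of the 34 genes was 127 to 133.9 in normal mice, which overlapped the 127.6 to 145.7 of the other diet. Dnal1 and Rfx3, with normal means of 21.9 and 13.7 FPKM, weigh most in that sum, and genes of low expression weigh little. Several of the 34 genes, such as the cell cycle factor E2f4, are known in cells without motile cilia.

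**Figure D2:**
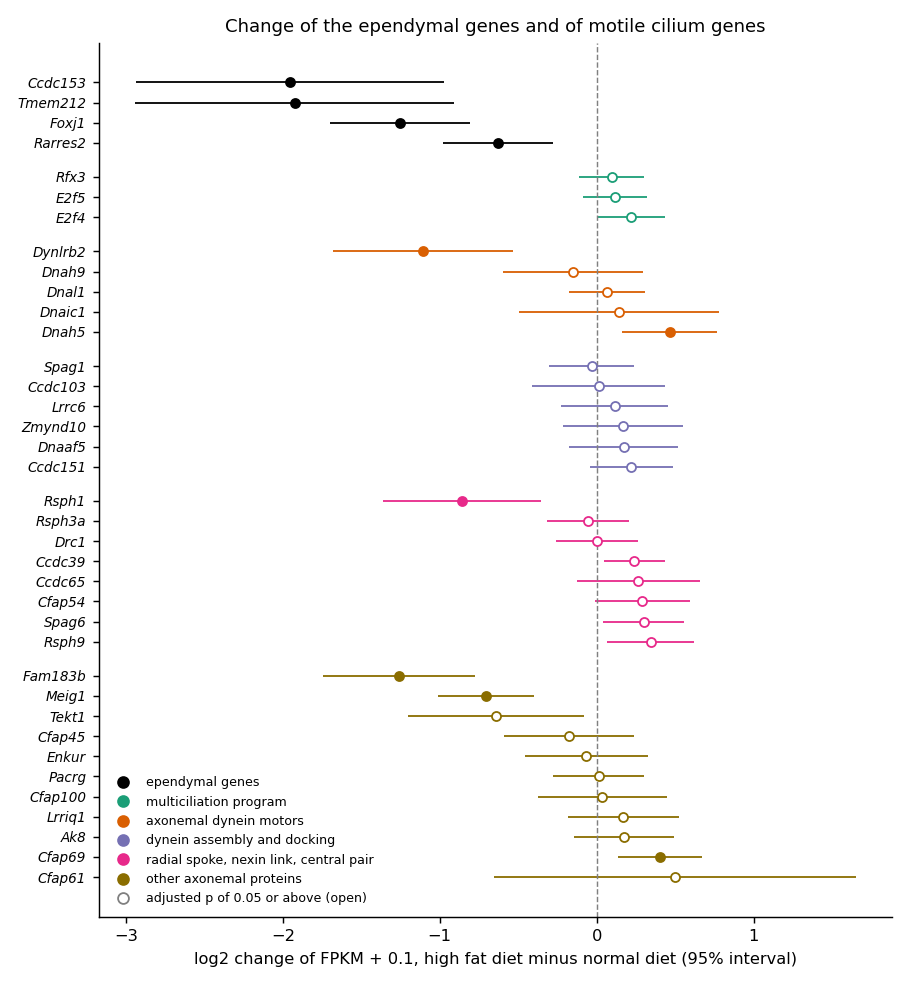
Log2 change of FPKM + 0.1 (high fat diet minus normal diet) with 95% intervals from limma for the 4 ependymal genes (black) and 33 genes of motile cilia, colored by role. Filled points have an adjusted p below 0.05. The 4 ependymal genes, Dynlrb2, Rsph1, Fam183b and Meig1 lie on the left with filled points, Dnah5 and Cfap69 on the right, and the other 27 points are open.

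Of the motors, Dynlrb2, a light chain of dynein, had 3.7, 4.3, 4.6 and 2.4 FPKM in normal mice and 1.0, 1.7, 2.2 and 1.9 FPKM on the high fat diet. This was a log2 change of -1.11 with a standard error of 0.26 (limma, adjusted p = 0.0105). Dnah5, a heavy chain of the outer dynein arm, passed in the opposite direction, from a mean of 1.08 to 1.53 FPKM (log2 change 0.47, adjusted p = 0.0263 from limma). It no longer passed when mouse 1 or 2 of the normal diet, or mouse 2 or 4 of the other diet, was left out, with adjusted p from 0.0549 to 0.0765 by limma. The other 3 motor genes tested, Dnah9, Dnaic1 and Dnal1, did not pass.

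Rsph1, which encodes a protein of the radial spoke head, had 3.2, 3.9, 4.5 and 3.0 FPKM in normal mice and 1.5, 1.4, 2.6 and 2.6 FPKM on the high fat diet. It changed by -0.86 on the log2 scale (standard error 0.22, limma adjusted p = 0.0175) and was the 1 gene of 8 in its list that passed. Fam183b, an axonemal gene, had 3.0, 4.8, 5.0 and 2.6 FPKM in normal mice against 1.2 to 1.7 in high fat diet fed mice (log2 change -1.26, adjusted p = 0.00303 from limma). Meig1 went from 2.13 ± 0.126 to 1.28 ± 0.222 FPKM (SD, n = 4 each), a log2 change of -0.71 (adjusted p = 0.00486 from limma). These 4 genes, named because they passed downwards, did not overlap between the diets. They were the 4 of 33 tested genes of the list with every high fat diet fed mouse lower, which held for 14.7% of all genes tested. Dnah5, Cfap54 and Ccdc39 had every high fat diet fed mouse higher, and of these Dnah5 alone passed. The share of all genes with every such mouse higher was not computed. Normal mice 2 and 3 were again the highest 2 normal mice for Dynlrb2, Rsph1 and Fam183b.

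Cfap69, a gene of other axonemal proteins, passed upwards with overlapping values, from a mean of 3.03 to 4.03 FPKM (log2 change 0.40, adjusted p = 0.0293 from limma). With single mice left out, it passed only when that mouse was normal mouse 4 or high fat diet fed mouse 3. No gene passed in the multiciliation program (0 of 3 tested, where Rfx3 was at 0.10, E2f5 at 0.12 and E2f4 at 0.22) or in dynein assembly and docking (0 of 6, from -0.03 to 0.22). At an unadjusted p below 0.05 by limma, 1 gene passed in the first list, E2f4, and 0 in the second. In the radial spoke list, whose median log2 change was 0.25, Ccdc39, Rsph9 and Spag6 were higher without passing. Their unadjusted p-values from limma were 0.0196, 0.0204 and 0.0263. Tekt1, of the other axonemal proteins, was lower without passing (unadjusted p = 0.0285 from limma). Without normal mice 2 and 3, 2 genes of all the motile cilium lists passed downwards and 0 upwards. Among the promoter sequences, 3 of the 4 genes that passed downwards were held, and 2 of those, Dynlrb2 and Fam183b, contained the RFX core. So did 0 of the 2 genes that passed upwards and 4 of 21 other held genes, which did not pass or, for Cfap52, were not tested. The forkhead core was in 0 of the 3, in 1 of the 2, Dnah5, and in 0 of the 21. Of all promoter windows 10.4% held the RFX core and 12.03% the forkhead core.

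Of 9 other ependymal markers, 8 were tested and 3 passed downwards, 37.5% against 15.3% of all genes tested, and 0 passed upwards. Cd24a, a surface glycoprotein of ependymal cells and immature neurons, had 6.4, 7.5, 7.1 and 6.7 FPKM in normal mice and 2.5, 2.6, 2.4 and 3.1 FPKM on the high fat diet. It changed by -1.36 on the log2 scale (standard error 0.09, limma adjusted p = 0.000126), and the mice of a diet differed little. Tm4sf1, a tetraspanin-like gene that endothelium also expresses, went from 5.38 to 3.78 FPKM (log2 change -0.49, adjusted p = 0.00867 from limma). Mia went from 3.08 to 0.75 FPKM (log2 change -2.10, adjusted p = 0.0106 from limma) with an overlap, since it had 1.4 FPKM in normal mouse 4 and 1.8 in high fat diet fed mouse 4. Like Tmem212, Mia passed the filter on low values through the normal diet. Among high fat diet fed mice, Cd24a, Tm4sf1 and Mia were each highest in mouse 4 and lowest in mouse 3. Mouse 3 was instead the highest of its diet for the ependymal genes, tied for Rarres2. The mean of log2(FPKM + 0.1) over the 8 markers differed from its normal mean by -0.69, -0.83, -0.81 and -0.14 in high fat diet fed mice 1 to 4. Vim, the intermediate filament of ependyma and other glia, did not pass, but it had 28.1 FPKM in normal mice 2 and 3 and between 16.4 and 20.8 in the other 6 mice. Calml4 did not pass at a log2 change of -1.09, with 5.8 FPKM in high fat diet fed mouse 4 and 0.9 to 1.7 in mice 1 to 3 of that diet. Hspa2, Kif9 and Kif6 did not pass and went the other way, with log2 changes of 0.11, 0.02 and 0.20. Without normal mice 2 and 3, 1 of these 8 markers passed downwards.

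Markers of the choroid plexus, the secretory epithelium that continues the ependyma, followed another order among high fat diet fed mice. The summed FPKM of 9 markers, mostly Ttr, was 676.7, 577.4, 739.6 and 349.4 in normal mice 1 to 4 and 80.7, 23.7, 29.9 and 957.9 in high fat diet fed mice 1 to 4. High fat diet fed mouse 4 was the highest of all mice in that sum, yet the summed FPKM of the 4 ependymal genes was 7.4 in this mouse, against 5.8 to 10.6 in the diet and 12.9 to 22.3 in normal mice. High fat diet fed mouse 3, the highest of its diet for the ependymal genes, was low for the choroid plexus. Ttr weighs less in a mean of log2(FPKM + 0.1). By that mean normal mice 1 to 4 were at 2.56, 2.61, 2.74 and 1.80 for the choroid plexus. For the ependymal genes they were at 1.64, 2.38, 2.43 and 1.58, the same order. Of the 9 choroid plexus markers 3 passed downwards with all mice, Folr1, Otx2 and Clic6, and 9 passed without high fat diet fed mouse 4. The count was 0 when any of mice 1 to 3 of either diet was left out, and 3 without normal mouse 4. Of the 9 markers, 6 had a mean of at least 1 FPKM on the high fat diet alone, and Otx2, at 0.675 FPKM, did not. The 4 ependymal genes passed with all mice and without high fat diet fed mouse 4, with a median log2 change of -1.59 with all mice and -1.58 without that mouse.

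**Figure D3:**
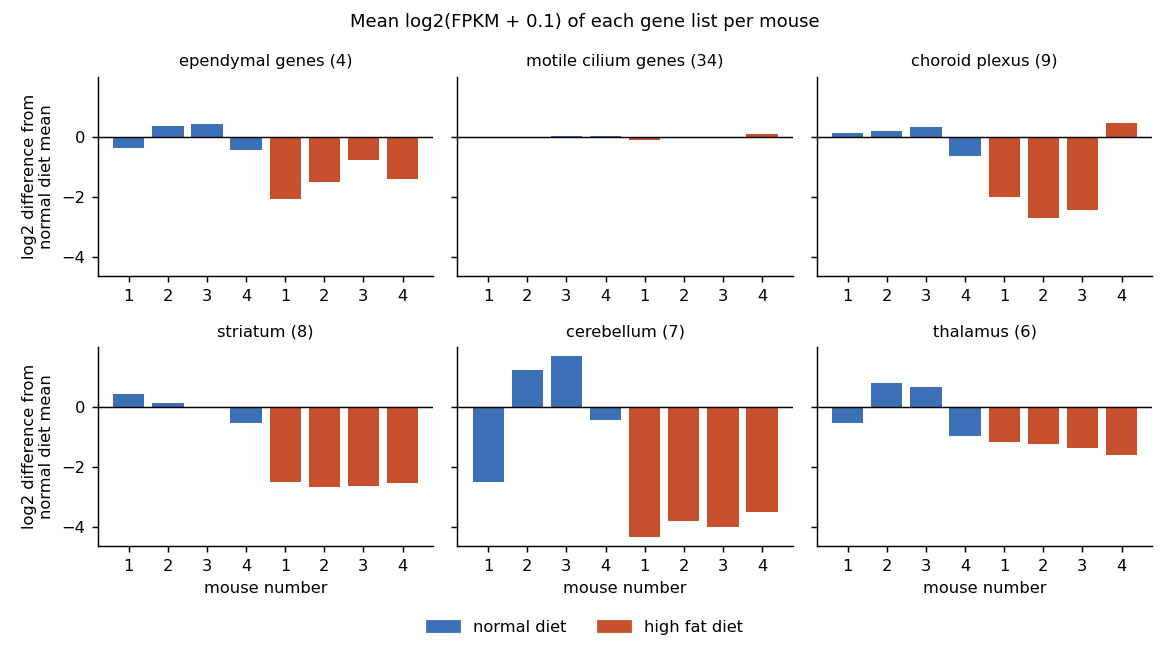
Mean of log2(FPKM + 0.1) over each gene list, shown per mouse as the difference from the mean of the 4 normal diet mice (blue, normal diet; red, high fat diet; number of genes in brackets; vertical axis shared by the panels). The ependymal genes are below 0 in all 4 high fat diet fed mice, from -2.07 to -0.78, those of the motile cilium genes lie from -0.12 to 0.08, and the choroid plexus is between -2.71 and -2.01 in mice 1 to 3 and at 0.47 in mouse 4.

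Markers of other brain regions gave different results. All 8 striatal markers tested passed downwards, with summed FPKM of 209.3 to 385.3 in normal mice and 59.3 to 69.1 in high fat diet fed mice. Of these 8, 6 had a mean of at least 1 FPKM on the high fat diet alone, and Drd2 and Adora2a had 0.45 FPKM each. Penk, the enkephalin precursor of striatal neurons, went from 109 to 11.2 FPKM (log2 change -3.24, adjusted p = 4.88e-05 from limma). Among normal mice the striatal sum was highest in mouse 1, at 385.3, and lowest in mouse 4, at 209.3. The sum of the ependymal genes was highest in mouse 3, at 22.3, and also lowest in mouse 4, at 12.9.

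Cerebellar markers were, like the ependymal genes, highest in normal mice 2 and 3, with summed FPKM of 13.1, 171.4, 234.4 and 52.6 in normal mice 1 to 4 and 6.5 to 8.2 in high fat diet fed mice. Of 5 tested, 4 passed downwards, and Gabra6 and Cnpy1, both with a listed 0 in high fat diet fed mouse 1, were outside the filter. Cbln3, Fat2 and En2, which passed downwards, met the filter through the normal diet, with high fat diet means of 0.325, 0.15 and 0.15 FPKM. With single mice left out, the cerebellar count downwards ranged from 3 to 5. Thalamic markers were likewise highest in normal mice 2 and 3, with sums of 39.4, 96.3, 86.5 and 33.3 in normal mice against 24.8 to 35.9 on the high fat diet. Of 5 tested, 1 passed downwards, Prkcd, with 2 passing without normal mouse 1 and 3 without normal mouse 4. The astrocyte gene Aqp4, the water channel at the borders of the brain with vessels and fluid, had 34, 50, 50.9 and 31.5 FPKM in normal mice and 19.3 to 23.7 in high fat diet fed mice (log2 change -0.88, adjusted p = 0.00348 from limma). The part of these regions in the lower level of the ependymal genes was not tested.

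Other cell types gave smaller or mixed differences. Of 10 markers of meningeal fibroblasts, 3 passed downwards (Igf2, Col1a1 and Col1a2) and 0 upwards, and their sum of 46.6 to 58.4 FPKM in normal mice overlapped 40.4 to 63.4 in high fat diet fed mice. Among 4 endothelial markers, Cldn5 passed downwards and Ly6c1 upwards. Of 5 microglial markers 0 passed by limma and 1 had an unadjusted p below 0.05, Tmem119. Of 6 astrocyte markers 2 passed downwards, Aqp4 and Gfap, and 1 upwards, Slc1a2. Dlx1 and Dcx, the 2 markers of neuroblasts of the subventricular zone among the values, did not pass. With single mice left out, the astrocyte count ranged from 1 to 3 downwards and from 0 to 1 upwards, and the meningeal count upwards from 0 to 2. Ly6c1 was lost without mouse 3 of the normal diet or mouse 1 or 3 of the other, a microglial marker passed upwards without high fat diet fed mouse 2, and a neuroblast marker did so without normal mouse 4.

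The genes with the pattern most like each ependymal gene were found among all genes tested, by the root mean square distance of log2(FPKM + 0.1) over the 8 mice after each gene's own mean was subtracted. For Tmem212 the nearest of all tested genes was Ccdc153, and for Ccdc153 it was Tmem212, at a distance of 0.32. Foxj1 was the 13th nearest to Tmem212, at 0.59, and the 9th nearest to Ccdc153, at 0.56. From the side of Foxj1, at the same distances, 1518th was the rank of Ccdc153 and 2235th that of Tmem212, since many genes lay closer to Foxj1. Rarres2 was the member nearest to Foxj1, 196th at 0.39. Its profile was farther from the other members, the 187th nearest to Tmem212, at 0.83, and the 302nd nearest to Ccdc153, at 0.89. Ranked from Rarres2, Foxj1 was 5456th, Tmem212 13645th and Ccdc153 13744th of the genes tested. Because all 4 differed between the diets, this distance reflects the diets as well as the mice.

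**Figure D4:**
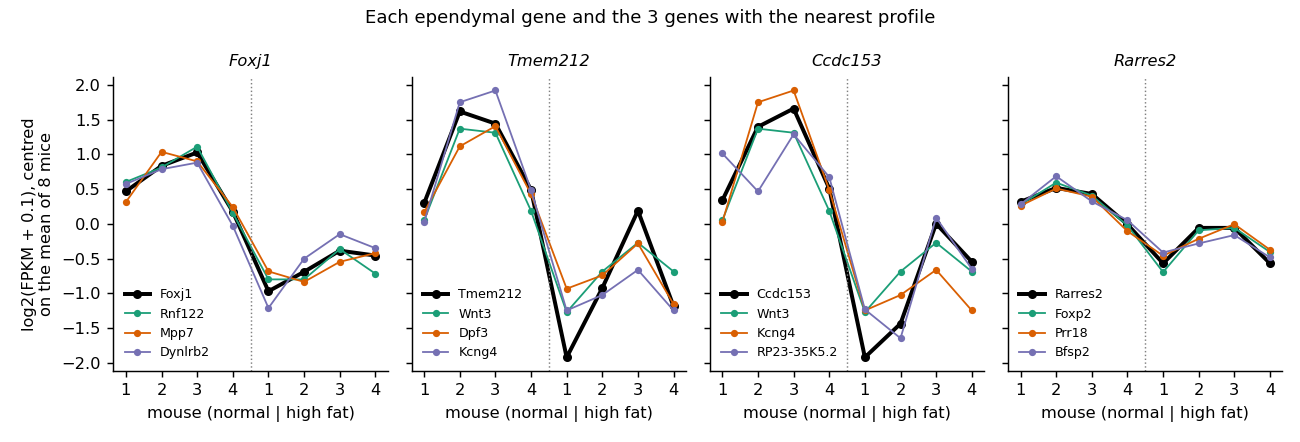
Log2(FPKM + 0.1), centred on the mean of the 8 mice, of each ependymal gene (black) and of the 3 genes outside the set with the smallest root mean square distance to it (colors), in normal diet mice 1 to 4 and high fat diet fed mice 1 to 4, separated by the dotted line. In each panel the black line is higher in all 4 normal mice than in all 4 high fat diet fed mice, and its swing is smallest for Rarres2.

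Outside the set, the genes nearest to Foxj1 were Rnf122 at 0.13, Mpp7 at 0.16 and Dynlrb2 at 0.17, the last a gene of the cilium lists. Nearest to Tmem212 were Wnt3 at 0.38, Dpf3 at 0.44 and Kcng4 at 0.44, and nearest to Ccdc153 were Wnt3 at 0.42, Kcng4 at 0.48 and RP23-35K5.2 at 0.50. Kcng4, a potassium channel subunit, had 2.8, 9.5, 10.7 and 3.9 FPKM in normal mice and 1.1 to 1.7 in high fat diet fed mice. Rarres2 had closer neighbours, Foxp2 at 0.08, Prr18 at 0.11 and Bfsp2 at 0.13. Nearest to the mean profile of the 4 genes were Wnt3 at 0.18, Dynlrb2, Rnf122, Tnfrsf12a and Dpf3, the last at 0.27. Their log2 changes, which the choice by profile fixes in direction, were from -1.56 to -1.11.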

How the data were processed

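Per the study's methods, the authors checked reads with FastQC, trimmed them with Trimmomatic, placed them on mm10 with STAR and made FPKM with Cuffnorm from GENCODE M17 basic genes (GRCm38.p6), with tool versions unstated. Libraries came from 8 mice, 4 per diet, and FPKM hides depth, so no counting interval can be given. The deposited FPKM values, to 0.1, hold 13996 genes. Of these 13982 have a mean of at least 1 and no 0, the filter the study's methods state, so a list gene missing from the values may have been removed by it.

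From these, log2(FPKM + 0.1) was fitted by limma (version 3.58.1, R 4.3.3), using a variance trend, no covariate and Benjamini-Hochberg adjustment over 13982 genes. On simulated data over 13982 genes, it recovered 90 of 100 genes changed 2-fold and 95 of 100 changed 3-fold. It also called 9 unchanged genes. The simulated noise was drawn separately for each gene, so sets of genes did not vary together between mice as they do in these data. Python 3.11.15 with scipy 1.17.1, pandas 2.3.3 and numpy 2.4.6 gave the other values, and matplotlib 3.10.9 the figures. Older symbols were also looked up.

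Members and lists were chosen with earlier results of these data known. Named genes were the 4 members, up to 4 genes per list with the smallest p among those that passed and up to 2 that passed against most of their list, and the nearest profiles (3 per member, 5 for their mean). Genes named as not passing, Vim among them, and the lines on Tmem119 and E2f4 were added after their values were seen. Alternatives were constants of 1 and 0.01, no filter, median-ratio and quantile scaling, no variance trend, a replicate block, each mouse left out, values moved by 0.05 FPKM, and normal mice 2 and 3 left out. Promoters were matched by symbol and position.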

Additional observations from a re-analysis of the deposited data

Results flagged for a closer look

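The summed FPKM of the 9 choroid plexus markers in high fat diet fed mice had a sample far from the others. Mouse 4 was at 957.9 and the other 3 mice were between 23.7 and 80.7, so its gap to the nearest mouse took 0.939 of the whole range of the diet. Of 42 groups of 4 mice checked, over the 4 ependymal genes and each gene list, 1 stood apart in this way, and chance gives about 1 in 20. The ependymal genes of mouse 4 lay within the range of the other high fat diet fed mice, except that Rarres2 shared the lowest value of 3.9 FPKM with mouse 1.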

How the results depend on the processing

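All 4 ependymal genes passed downwards under each alternative with all 8 mice and with each mouse left out. Their log2 changes ranged from -1.40 to -0.94 for Foxj1, from -2.31 to -1.05 for Tmem212, from -2.28 to -1.28 for Ccdc153 and from -0.74 to -0.54 for Rarres2. Without normal mice 2 and 3 together the count was 1, with Tmem212 at -1.36, Ccdc153 at -1.40 and Rarres2 at -0.47. Fewer mice were then tested, and 1215 genes passed downwards in place of 2146.

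The count of motile cilium genes passing downwards was 4 or 5, and 2 without normal mice 2 and 3. The count passing upwards was 2, but 3 with no variance trend, 1 with quantile normalization, 0 to 4 with each mouse left out (4 without normal mouse 4, 0 without mouse 1 or mouse 2 of the normal diet, or mouse 2 of the other) and 0 without normal mice 2 and 3. The cause was not tested.

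The labels do not say whether mice were paired by replicate number. Over all genes tested, same-numbered mice had correlations of deviations from -0.11 to -0.03, which cannot exclude a pairing in single genes. With the number as a replicate block, the 4 ependymal genes still passed, the cilium counts were 4 and 2 (Dnah5 was lost at adjusted p = 0.0695 from limma, and another gene passed), and calls over all genes went from 2146 to 1550 downwards and from 2480 to 1840 upwards. With the block, the standard errors were 0.17 for Foxj1, 0.25 for Tmem212, 0.29 for Ccdc153 and 0.09 for Rarres2. Without it they were 0.20, 0.45, 0.44 and 0.16. Of the other named list genes, each in 15 fits, 65 of 495 values lost the threshold and 0 reversed. Dnah5, Cfap69, En2 and Gfap lost it in 6 fits each, Slc1a2 in 7, Folr1 in 8, and Clic6 and Otx2 in 9 each. Col1a2 and Ly6c1 lost it in 4 each. The number of reads is unknown, and values are rounded to 0.1 FPKM.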
